A study of Homo sapiens with 15 samples.

Results

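The expression of 10 genes of the CHD, ISWI and INO80 families of chromatin remodelers was examined, taken by symbol from a table of 37787 genes: BAZ2A, BAZ1B, SMARCA5, SMARCA1, CHD3, CHD4, CHD7, CHD8, INO80 and SRCAP. The cells were HGrC1, an immortalized, non-luteinized human granulosa cell line whose own FOXL2 alleles are normal, and RNA was sequenced in 15 libraries, 3 lettered replicates (A, B and C) for each of 5 conditions. Cells received empty vectors (Vectors), SMAD3 with wild-type FOXL2 (FOXL2WT), SMAD3 with the C134W mutant of FOXL2 (FOXL2C134W), or one of the last 2 combinations together with FOXO1-3A, a FOXO1 mutant that stays active in the nucleus (FOXL2WT + FOXO1 and FOXL2C134W + FOXO1). All cells thus carried normal FOXL2 alleles, SMAD3 was added everywhere except in Vectors, and RNA was taken 24 h after a 4 h lipofection, without serum. Because nothing in the labels says whether the replicates were separate cultures, the p-values measure the spread between these libraries, which may be partly technical. In bulk RNA, fewer cells with a transcript and less of it per cell cannot be told apart.

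Chromatin remodelers use ATP to slide, evict or rebuild nucleosomes and so set how open a stretch of DNA is. The ISWI ATPases SMARCA5 and SMARCA1 space nucleosomes evenly, and they work with bromodomain partners such as BAZ2A, which with SMARCA5 keeps part of the ribosomal RNA genes silent, and BAZ1B, which acts at replicating chromatin. CHD3 and CHD4 are alternative ATPases of NuRD, a complex that couples remodeling to histone deacetylation, while CHD7 acts at enhancers and CHD8 is known for binding beta-catenin and repressing its targets. INO80 and SRCAP are ATPases of large complexes that share several subunits: SRCAP places the histone variant H2A.Z into nucleosomes, and INO80 moves nucleosomes around promoters and damaged DNA.

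Promoters were taken from RefSeq (GRCh38.p14, 250 bases before to 50 after the start of a gene). The table matched 9 of the 10 members, with 10 sequences, since BAZ2A has 2 starts, and CHD7 was not matched. Both BAZ2A promoters are shown because its main transcripts begin in them, that of SRCAP as a member called between FOXL2C134W and FOXL2WT in every fit without 1 library, and that of SMARCA5 as one not called. All read 5′ to 3′ on the strand of the gene, and the capitals mark matches to AAACA, the core of forkhead sites, or CAGAC, a SMAD site, on either strand (TGTTT and GTCTG are their reverse complements).
BAZ2A, upstream start, chr12:56636310-56636609, minus strand: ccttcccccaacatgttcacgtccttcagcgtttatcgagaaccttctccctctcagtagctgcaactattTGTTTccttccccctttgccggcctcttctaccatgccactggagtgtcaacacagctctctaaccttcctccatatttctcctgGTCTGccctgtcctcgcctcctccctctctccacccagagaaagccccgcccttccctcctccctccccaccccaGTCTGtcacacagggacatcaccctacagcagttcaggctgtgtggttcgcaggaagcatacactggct
BAZ2A, downstream start, chr12:56630277-56630576, minus strand: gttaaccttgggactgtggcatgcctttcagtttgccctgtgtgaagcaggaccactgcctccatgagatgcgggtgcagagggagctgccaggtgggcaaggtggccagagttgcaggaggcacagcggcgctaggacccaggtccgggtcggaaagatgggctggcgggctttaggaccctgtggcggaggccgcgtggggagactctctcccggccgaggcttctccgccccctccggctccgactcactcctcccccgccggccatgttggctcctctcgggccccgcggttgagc
SRCAP, chr16:30698921-30699220, plus strand: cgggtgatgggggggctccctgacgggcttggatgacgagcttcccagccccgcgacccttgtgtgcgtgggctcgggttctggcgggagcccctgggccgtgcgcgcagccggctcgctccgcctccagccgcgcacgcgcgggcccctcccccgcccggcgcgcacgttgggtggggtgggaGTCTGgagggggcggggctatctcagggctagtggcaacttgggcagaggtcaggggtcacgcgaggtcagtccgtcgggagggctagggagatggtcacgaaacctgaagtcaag
SMARCA5, chr4:143513452-143513751, plus strand: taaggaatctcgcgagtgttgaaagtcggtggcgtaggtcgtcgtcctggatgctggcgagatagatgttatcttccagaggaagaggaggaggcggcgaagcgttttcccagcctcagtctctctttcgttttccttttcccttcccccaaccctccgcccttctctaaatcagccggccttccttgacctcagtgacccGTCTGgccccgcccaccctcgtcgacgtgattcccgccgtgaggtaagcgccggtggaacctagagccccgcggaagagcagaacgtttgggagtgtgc
AAACA was found in 4 of the 10 member sequences and in 44.4% of all 35116 promoters of the same length, and CAGAC in 5 of the 10 and in 45.3% of all. The longer forkhead motif GTAAACA, which contains AAACA, was in 0 of the 10 and in 3.42% of all. These letters describe the windows only, and they show no binding. The CHD3 and CHD4 windows, both with AAACA, do not hold the start of the transcript with most reads (CHD3-203 and CHD4-248). For SRCAP-202, with most reads of SRCAP, no start site was assigned.

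In GRCh38 coordinates of GENCODE 44, the members lie as follows: BAZ2A (chromosome 12, 56595596 to 56636816, minus strand), CHD4 (chromosome 12, 6570082 to 6614524, minus), BAZ1B (chromosome 7, 73440406 to 73522293, minus), SMARCA5 (chromosome 4, 143513702 to 143557486, plus), SMARCA1 (chromosome X, 129446501 to 129523500, minus), CHD3 (chromosome 17, 7884796 to 7912760, plus), CHD7 (chromosome 8, 60678740 to 60868028, plus), CHD8 (chromosome 14, 21385194 to 21456126, minus), INO80 (chromosome 15, 40978880 to 41116280, minus) and SRCAP (chromosome 16, 30698209 to 30741409, plus).

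Levels were compared between genes as TPM, which is scaled by transcript length, and summed over transcripts of at least 1000 bases, a choice made after seeing that short fragments of some members took much of the TPM. On that scale CHD4 was the most abundant member, at 53.8 ± 5.90 TPM (SD over the 15 libraries), followed by SMARCA5 at 46.5 ± 4.51, SMARCA1 at 37.7 ± 3.42 and BAZ1B at 31.5 ± 4.12 TPM. CHD8 (16.3 ± 2.14 TPM) and BAZ2A (14.9 ± 1.43 TPM) lay within each other's spread, as did INO80 (10.7 ± 0.890 TPM) and CHD3 (10.4 ± 1.94 TPM). SRCAP (5.25 ± 1.25 TPM) and CHD7 (2.10 ± 0.414 TPM) were the lowest. The NuRD ATPases were therefore unequal, with CHD4 above CHD3 in every library: the lowest CHD4 value was 46.2 TPM and the highest CHD3 value 13.5 TPM. With all transcripts CHD3 rose to 62.3 ± 29.5 TPM, most of it in CHD3-212, a noncoding transcript of 174 bases that held on average 69.1% of the TPM but 0.62% of the reads of the gene. That fragment ranged from 0 to 107 TPM between libraries, so the level of CHD3 over all transcripts is uncertain.

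**Figure D1:**
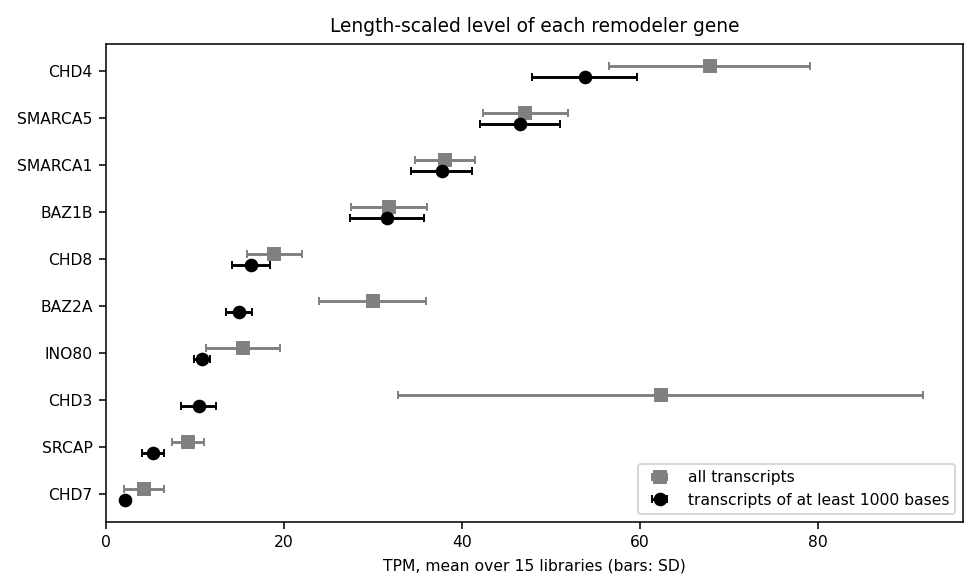
Level of each member in TPM (x axis, mean over 15 libraries, bars SD), over all transcripts (grey squares) and over transcripts of at least 1000 bases (black circles). CHD3 stands at 62.3 TPM with all transcripts and at 10.4 TPM without the short ones, while SMARCA5, SMARCA1 and BAZ1B hardly move.

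Gene totals from here on are CPM, estimated counts scaled to a common library total after TMM normalization, which allow libraries to be compared for one gene. Library totals ran from 14962245 to 25339094 estimated counts, and the members had between 227 (CHD7) and 7979 (SMARCA5) counts in a library, so all 10 passed the filter on low counts that kept 13868 genes. Between the lowest and the highest library the fold was smallest for INO80 (1.27) and largest for SRCAP (2.29). Comparisons used the quasi-likelihood test of edgeR, and a gene was called at a Benjamini-Hochberg adjusted p under 0.05 over all 13868 genes. Pairs of replicates differed by more than counting error, since the chi-square of their counts per degree of freedom was 2.21 to 8.64. Of 16 granulosa markers, 11 exceeded 1 CPM in Vectors, including KRT8, KRT18, GATA4 and WT1, beside 7 of 14 markers of other cell types. FSHR had 0 counts in every library and CYP19A1 and INHA at most 4, which limits HGrC1 as a model of differentiated granulosa cells.

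The transfected genes were expressed unequally between the conditions compared. FOXL2 averaged 561 CPM in FOXL2WT and 147 CPM in FOXL2C134W, against 8.73 CPM in Vectors, and SMAD3 averaged 2768, 843 and 249 CPM. In FOXL2WT + FOXO1 and FOXL2C134W + FOXO1, FOXL2 averaged 384 and 152 CPM, and SMAD3 969 and 392 CPM. FOXO1 averaged 117 CPM in FOXL2WT + FOXO1 and 43.2 CPM in FOXL2C134W + FOXO1, against 13.2 CPM in Vectors. Reads of the mutant, the wild type and the plasmids were not separated. In every comparison of the alleles, the allele and the amount of FOXL2 and SMAD3 RNA cannot be told apart in these libraries. Where FOXO1 was added to the same FOXL2 form, SMAD3 RNA was lower, and for wild-type FOXL2 so was FOXL2 RNA. There FOXO1 and these amounts cannot be told apart either. Protein was not analysed here.

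The comparison of FOXL2C134W with FOXL2WT asks what the mutation changes in the presence of SMAD3. In it 8 of the 10 remodeler genes were higher in FOXL2C134W and 0 were lower, where 7.13% of all genes tested were called higher and 4.12% lower. The 8 were SRCAP, CHD3, CHD7, BAZ1B, CHD8, BAZ2A, CHD4 and INO80, and in each the 3 FOXL2C134W libraries lay above the 3 FOXL2WT libraries, as did 14.8% of all genes. The ISWI ATPases SMARCA5 and SMARCA1 were not called. The median log2 fold change of the members was 0.30, beside -0.012 over all genes tested. BAZ2A is a gene the study picked out from these samples, so its place in the count is not independent evidence. All members were chosen with earlier results of these data known, so the whole count is a description.

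CHD3 is an ATPase of NuRD. In FOXL2WT A, B and C it stood at 44.7, 38.2 and 42.5 CPM, and in FOXL2C134W at 56.3, 67.7 and 71.1 CPM. Vectors lay between, at 64.3, 52.6 and 52.0 CPM, and overlapped FOXL2C134W but not FOXL2WT. The log2 fold change between the alleles was 0.63 (standard error 0.093, adjusted p = 2.7e-04, a fold of 1.55), and CHD3 was called without any one of the 6 libraries. CHD4, its more abundant counterpart, had 241, 223 and 247 CPM in FOXL2WT and 272, 297 and 299 CPM in FOXL2C134W. All FOXL2C134W libraries were above the FOXL2WT and the Vectors libraries (268, 254 and 257 CPM). Its change was smaller than that of CHD3, at 0.29 (standard error 0.050, adjusted p = 0.0011), a difference between genes that was not tested, and it was called without any one library.

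CHD7, the enhancer-bound member and the least abundant of the 10, had 15.1, 15.2 and 16.8 CPM in FOXL2WT and 19.7, 27.6 and 24.4 CPM in FOXL2C134W. The lowest FOXL2C134W library, A, was inside the range of Vectors (18.2 to 22.8 CPM). The log2 fold change was 0.60 (standard error 0.12, adjusted p = 0.0043) and was called in all 6 fits that left out 1 library. CHD8 had 89.7, 86.6 and 90.0 CPM in FOXL2WT and 96.9, 117 and 115 CPM in FOXL2C134W. Here too the A library was low. Its log2 fold change was 0.30 (standard error 0.072, adjusted p = 0.010), and it was not called without FOXL2C134W B (0.26, adjusted p = 0.058) or C (0.27, adjusted p = 0.054).

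Among the ISWI members the partner proteins BAZ2A and BAZ1B were called higher and the ATPases were not called, a difference that was not tested. The split does not extend to all partners. BAZ1A (0.21, adjusted p = 0.14) and BAZ2B (0.43, adjusted p = 0.10), which are not members, were not called in edgeR. BAZ2A, the ribosomal gene silencer, was at 95.5, 90.3 and 91.0 CPM in FOXL2WT and at 104, 118 and 117 CPM in FOXL2C134W, a change of 0.29 on the log2 scale (standard error 0.056, adjusted p = 0.0023) that was called without any one library. BAZ1B was at 133, 126 and 143 CPM in FOXL2WT and at 143, 180 and 186 CPM in FOXL2C134W. FOXL2WT C and FOXL2C134W A were nearly equal, at 143.1 and 143.4 CPM. The log2 fold change of BAZ1B was 0.33 (standard error 0.086, adjusted p = 0.016), and it was called in 2 of the 6 fits without 1 library, those without FOXL2WT C or FOXL2C134W A; in the others the adjusted p ran up to 0.099 with log2 fold changes from 0.26 to 0.33.

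SMARCA5 was at 280.2, 277 and 287 CPM in FOXL2WT and at 262, 305 and 305 CPM in FOXL2C134W. The A library of FOXL2C134W lay below all FOXL2WT libraries and the others above them. Its log2 fold change was 0.05, with a nominal 95% interval from -0.09 to 0.18 (adjusted p = 0.73). SMARCA1 was at 109, 102 and 115 CPM in FOXL2WT and at 109, 118 and 117 CPM in FOXL2C134W, and its log2 fold change was 0.07, with an interval from -0.06 to 0.20 (adjusted p = 0.54). Both upper bounds lie under the values of all 8 called members. Those members have intervals too, and that of INO80, from 0.10 to 0.34, overlaps both. The difference between the genes was not tested. For SMARCA5 the direction depended on scaling: with an offset for gene length it was -0.13 (adjusted p = 0.075), and with length and GC content offsets together, added after seeing the data, it was -0.13 with adjusted p = 0.016.

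SRCAP is the ATPase that deposits H2A.Z. It stood at 32.4, 34.3 and 29.5 CPM in FOXL2WT and at 47.2, 67.6 and 47.7 CPM in FOXL2C134W. Replicate B was far above the other FOXL2C134W libraries. The log2 fold change was 0.76 (standard error 0.15, adjusted p = 0.0028, a fold of 1.70), and without FOXL2C134W B it was 0.58 and still called (adjusted p = 0.021). INO80 had 50.4, 50.5 and 50.3 CPM in FOXL2WT, the tightest replicates of any member, and 54.8, 58.3 and 63.1 CPM in FOXL2C134W. Its change of 0.22 (standard error 0.062, adjusted p = 0.027) was called in only 1 of 6 fits without a library, that without FOXL2C134W A (0.27, adjusted p = 0.0064).

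**Figure D2:**
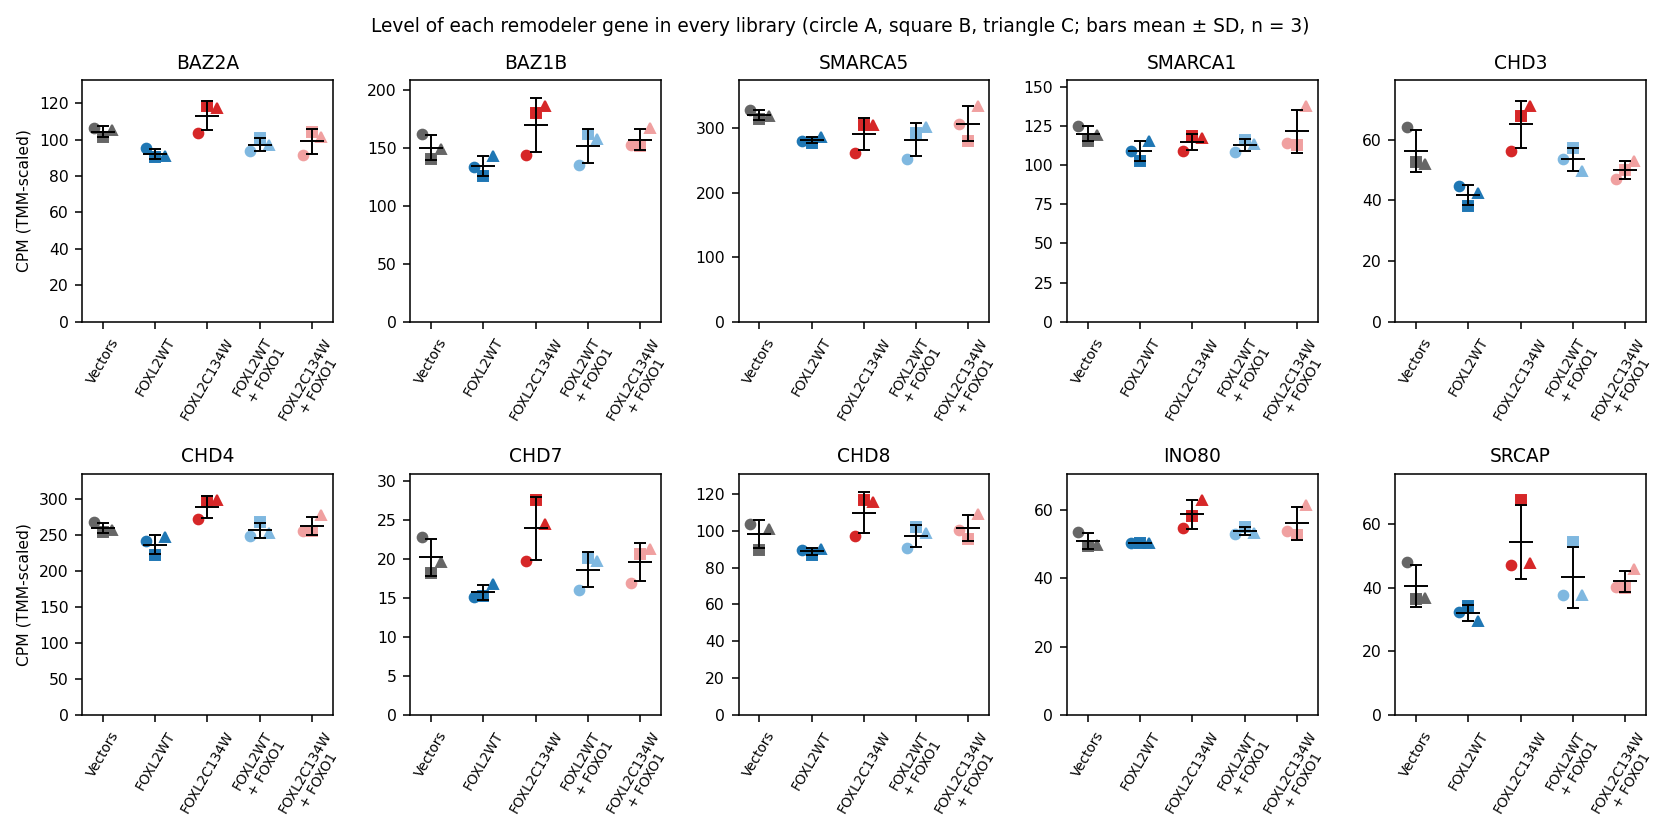
CPM of each member (y axis, from 0) in the 15 libraries, by condition on the x axis; circles, squares and triangles are replicates A, B and C, and the bars give the mean and SD of 3 libraries. FOXL2WT has the lowest mean in all 10 panels, and FOXL2C134W A is the lowest FOXL2C134W library in all 10 panels.

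FOXL2C134W A was the lowest of its 3 libraries for 8 of the 8 called members, and also for SMARCA5 and SMARCA1. Without FOXL2C134W A the same 8 were called, and 5 were called without FOXL2C134W B or without C (BAZ2A, CHD3, CHD4, CHD7 and SRCAP). A property of the libraries moved with these values: genes with transcripts of at least 5000 bases took 8.93%, 10.1% and 9.89% of the counts in FOXL2C134W A, B and C, 8.35% to 8.46% in FOXL2WT and 8.66% to 9.20% in Vectors. The members are long, with a median transcript length of 5171 bases beside 2110 over all genes tested. With an offset for length, 7 of the 10 were called higher, INO80 having 0.14 (adjusted p = 0.088), while CHD8 fell to 0.16 (adjusted p = 0.041), BAZ1B to 0.20 (adjusted p = 0.039) and CHD4 to 0.19 (adjusted p = 0.0019). SRCAP (0.64), CHD7 (0.47) and BAZ2A (0.22) remained called. For CHD3 the offset rests on a mean length of 1180 bases that the short fragment sets, and its value was 0.70. SMARCA5, with 7582 bases the longest of the 10, was not called and had -0.13 with the length offset (adjusted p = 0.075). The part of length in these values was not tested. Summed markers of other cell types also moved, from 1205 to 1344 CPM in FOXL2WT to 1473 to 1483 CPM in FOXL2C134W. In Vectors they summed to 1661 to 1739 CPM. Most of the sum was COL1A1, a fibroblast collagen. PTPRC had 5 counts or fewer and LHCGR 0. In Vectors CD68, the other immune marker, averaged 110 CPM and STAR, the other luteal marker, 2.98 CPM. Mitochondrially encoded genes took 0.277% to 0.309% of the counts in FOXL2WT and 0.314% to 0.369% in FOXL2C134W. The part of these markers and genes in the result was not tested.

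When DESeq2 was given transcript length offsets, 4 of the 10 members were called (BAZ2A 0.58, BAZ1B 0.36, CHD7 1.64 and SRCAP 0.68), and CHD3 turned to -0.29 with a standard error of 0.79 (adjusted p = 0.90). The TPM-weighted length of CHD3 ranged from 488 to 6198 bases between libraries. With the same offsets over transcripts of at least 1000 bases, an alternative added after seeing the data, 7 were called, with CHD3 at 0.65 and INO80 at 0.14 (adjusted p = 0.28). DESeq2 on the gene counts called the 8 that edgeR called.

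At the level of transcripts, given as TPM and not tested, the long transcript BAZ2A-214 (8600 bases, 73.6% of the reads of the gene), which starts inside the upstream promoter shown above, was at 8.61, 8.72 and 10.0 TPM in FOXL2WT and 10.4, 12.8 and 12.6 TPM in FOXL2C134W. BAZ2A-211 (6050 bases), which starts at the downstream promoter, was at 5.22, 4.30 and 2.77 TPM and at 3.95, 4.30 and 2.97 TPM. The conditions did not overlap in the former and overlapped in the latter. SRCAP-202, with 75.4% of the reads of SRCAP, was at 3.07, 3.61 and 3.26 TPM in FOXL2WT and 4.65, 6.15 and 5.39 TPM in FOXL2C134W, again without overlap. CHD3-203, with 68.0% of the reads of CHD3, overlapped, at 3.37, 5.71 and 3.76 TPM against 5.09, 6.48 and 9.29 TPM.

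Comparison with Vectors places these differences. The comparisons share libraries, so their values are set side by side and not counted as separate evidence. In FOXL2WT against Vectors the log2 fold changes of all 10 members were below 0, with a median of -0.17 beside 0.0025 over all genes, and 1 member was called lower, CHD3, where 3.61% of all genes were. CHD3 fell by 0.43 (standard error 0.094, adjusted p = 0.010), and it was not called without Vectors A or FOXL2WT B (adjusted p up to 0.087). In 7 members the FOXL2WT libraries lay below those of Vectors, as in 15.9% of all genes: BAZ2A, SMARCA5, SMARCA1, CHD3, CHD4, CHD7 and SRCAP. Values of those not called ran from -0.13 for CHD4 (adjusted p = 0.13) to -0.36 for CHD7 (adjusted p = 0.10), and INO80 was at -0.017. With only the 2 conditions compared in the fit, 6 were called lower (BAZ2A, SMARCA5, CHD3, CHD4, CHD7 and SRCAP).

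In FOXL2C134W against Vectors 2 of the 10 were called, both higher, where 7.48% of all genes were: INO80 with 0.20 (standard error 0.061, adjusted p = 0.030) and CHD4 with 0.16 (standard error 0.050, adjusted p = 0.042). In both, the 3 FOXL2C134W libraries lay above Vectors, as in 15.7% of all genes. SRCAP had 0.42 (adjusted p = 0.058) with overlapping libraries. SMARCA5 was the member whose FOXL2C134W libraries, 262 to 305 CPM, lay below those of Vectors, 314 to 328 CPM, as in 16.1% of all genes, with a log2 fold change of -0.14 (adjusted p = 0.18). This comparison rested on single libraries: 8 members were called without FOXL2C134W A, 4 without Vectors A, 1 without FOXL2C134W C, and 0 without FOXL2C134W B, Vectors B or Vectors C.

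**Figure D3:**
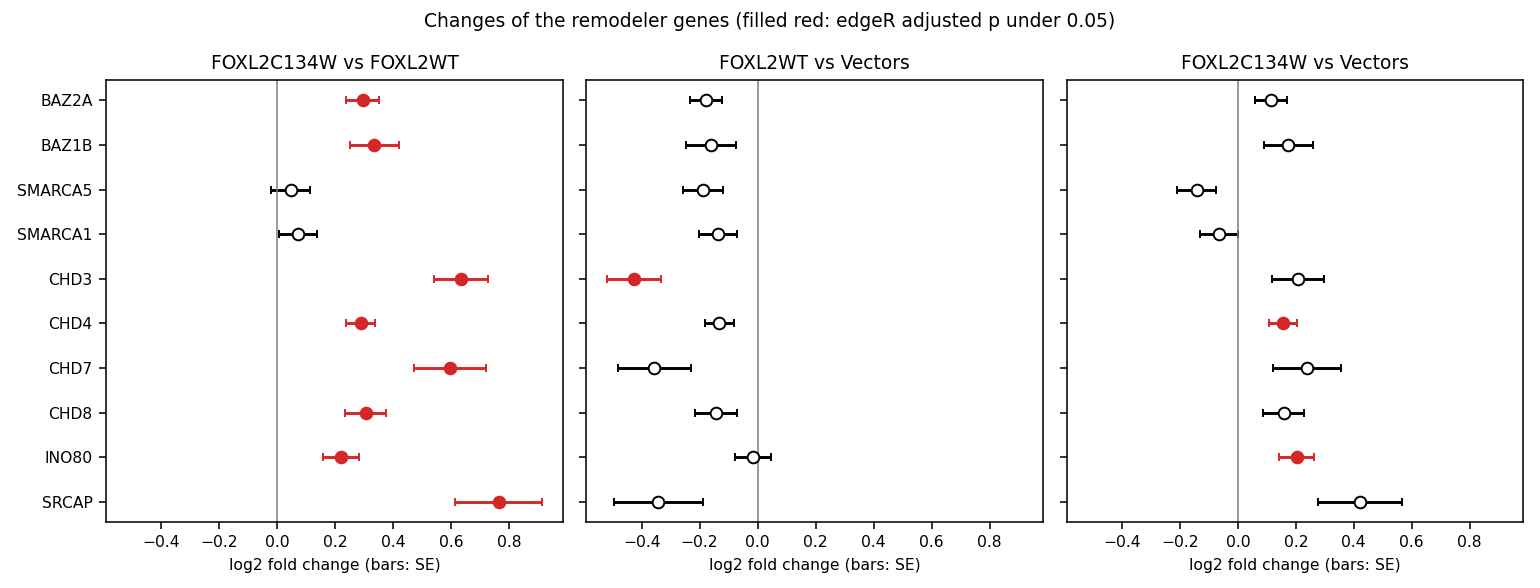
Log2 fold change of each member (points, bars standard error) in the 3 comparisons among Vectors, FOXL2WT and FOXL2C134W; filled red points passed an adjusted p of 0.05. In the left panel 8 genes are filled, all to the right of 0, and in the middle panel all 10 points are to the left of 0 with CHD3 alone filled.

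FOXO1 was added to see whether it changes the effect of the mutation. In FOXL2C134W + FOXO1 against FOXL2C134W, edgeR called 0 of the 10 members (0.714% of all genes were called), 5 had an unadjusted p under 0.05, and DESeq2 called 1, CHD3. CHD3 was at 46.9, 49.9 and 53.1 CPM with FOXO1, below the 56.3, 67.7 and 71.1 CPM without it, and its log2 fold change was -0.38 (standard error 0.090, adjusted p = 0.058). SRCAP, at 40.3, 39.9 and 45.8 CPM with FOXO1, also lay below the libraries without it, with -0.37 (adjusted p = 0.31). These were the 2 members with no overlap, beside 7.72% of all genes. BAZ2A had -0.19 (adjusted p = 0.13). Without FOXL2C134W A, 2 members were called, BAZ2A and CHD3.

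In FOXL2WT + FOXO1 against FOXL2WT, edgeR again called 0 of the 10, with 0.0505% of all genes called. There were 3 members with an unadjusted p under 0.05, and DESeq2 called CHD3. All 10 log2 fold changes were above 0, with a median of 0.12 beside 1.5e-04 over all genes, and in 5 members (CHD3, CHD4, CHD8, INO80 and SRCAP) the libraries with FOXO1 lay above those without it, as in 6.89% of all genes. CHD3 was at 53.5, 57.2 and 49.8 CPM, a change of 0.35 (standard error 0.095, adjusted p = 0.24). SRCAP was at 37.5, 54.3 and 37.7 CPM, a change of 0.44 (standard error 0.15, adjusted p = 0.40), and without FOXL2WT + FOXO1 B, its high library, the change was 0.24 (adjusted p = 0.77).

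The difference between the effects of FOXO1 in the 2 backgrounds was tested by an interaction term. It was called for 1 of the 10 members, CHD3, at -0.73 (standard error 0.13, adjusted p = 0.011), where 1.25% of all genes were called below 0. CHD3 was called in all 12 fits that left out a library. SRCAP was not called, with -0.81 (standard error 0.21, adjusted p = 0.063). The other members called higher in FOXL2C134W than in FOXL2WT had values from -0.53 (CHD7, adjusted p = 0.17) to -0.16 (INO80, adjusted p = 0.48), and SMARCA5 and SMARCA1 had 0.07 (adjusted p = 0.83) and 0.04 (adjusted p = 0.93). Without FOXL2C134W A, 7 members were called: BAZ2A, BAZ1B, CHD3, CHD4, CHD7, CHD8 and SRCAP. Since the RNA of FOXO1, FOXL2 and SMAD3 differed in amount between the 2 backgrounds, background and amount of RNA cannot be told apart. The mean share of counts in genes of at least 5000 bases also moved with FOXO1, with overlapping libraries. It was 8.41% in FOXL2WT and 8.61% in FOXL2WT + FOXO1, and 9.63% in FOXL2C134W and 9.01% in FOXL2C134W + FOXO1. The part of length in the FOXO1 comparisons was not tested.

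**Figure D4:**
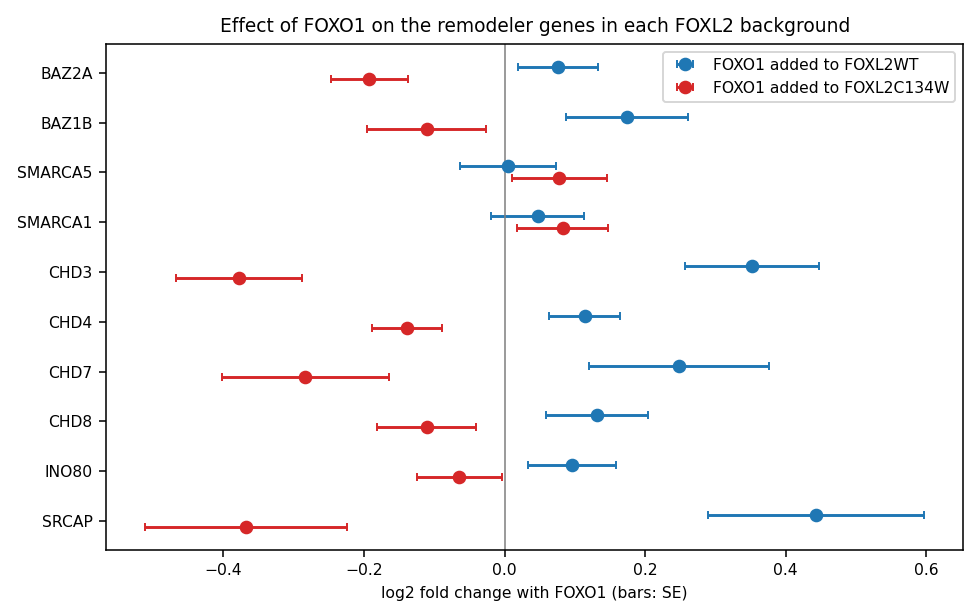
Log2 fold change with FOXO1 (x axis, bars standard error) of each member in FOXL2WT (blue) and in FOXL2C134W (red). The 2 points lie on opposite sides of 0 for 8 members and on the same side for SMARCA5 and SMARCA1; the interaction passed the threshold for CHD3 alone.

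Against FOXL2WT, the cells with FOXL2C134W + FOXO1 had 0 members called by edgeR (1.69% of all genes were called), 8 with an unadjusted p under 0.05 and 0 called by DESeq2. All 10 log2 fold changes were above 0, with a median of 0.17 beside -0.0049 over all genes, from 0.10 for BAZ2A to 0.40 for SRCAP. In 7 members the libraries lay above those of FOXL2WT, beside 12.1% of all genes. With only these conditions in the fit, BAZ1B, CHD3 and SRCAP were called. The 2 conditions differ in the allele, in FOXO1 and in the amounts of FOXL2 and SMAD3 RNA, which cannot be told apart. FOXL2C134W + FOXO1 was not tested against FOXL2WT + FOXO1.

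Genes that work with the members were examined from lists of complex subunits and related ATPases. Of 11 tested other ATPases of the same superfamily, 7 were higher in FOXL2C134W than in FOXL2WT and 0 lower, where 7.13% of all genes were called higher and 4.12% lower, with a median of 0.30 (CHD5 was not tested, with at most 3 counts in a library). The highest were EP400, the ATPase of the TIP60 acetyltransferase complex, with 0.96 (adjusted p = 2.4e-05), SMARCA4, an ATPase of the BAF complexes, with 0.67 (adjusted p = 2.0e-06), and ATRX, which loads histone H3.3, with 0.41 (adjusted p = 0.025). SMARCA4 and EP400 are also genes the study picked out from these samples, so their place in the count is not independent evidence. All lists were chosen with earlier results of these data known, so their counts are descriptions. The others called were CHD2 with 0.40, CHD6 with 0.38, SMARCA2 with 0.30 and CHD9 with 0.28.

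Subunits that join the members in their complexes were counted in the same comparison, against the same shares of 7.13% and 4.12% of all genes. Of 12 NuRD partners of CHD3 and CHD4, 3 were higher, the scaffold proteins GATAD2A (0.44, adjusted p = 3.3e-05), GATAD2B (0.37, adjusted p = 0.014) and MTA1 (0.28, adjusted p = 0.024), and 1 was lower, the small subunit CDK2AP1 (-0.17, adjusted p = 0.034). The median was 0.01, and the deacetylases HDAC1 and HDAC2 had 0.02 (adjusted p = 0.80) and -0.03 (adjusted p = 0.72). Of 9 ISWI partners tested, BPTF, the large subunit of NURF, was higher (0.85, adjusted p = 0.0013) and POLE3, a histone-fold protein, lower (-0.19, adjusted p = 0.0058), with a median of 0.04. Of 14 INO80 partners and 9 SRCAP partners edgeR called 0, with medians of -0.0029 and -0.08, and VPS72, the H2A.Z-binding subunit, came closest (-0.18, adjusted p = 0.053). These lists also differ in length: median transcript lengths were 4700 bases for the ATPases, 1749 for the NuRD, 3314 for the ISWI, 1726 for the INO80 and 1296 for the SRCAP partners, and the part of length in the difference between lists was not tested.

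**Figure D5:**
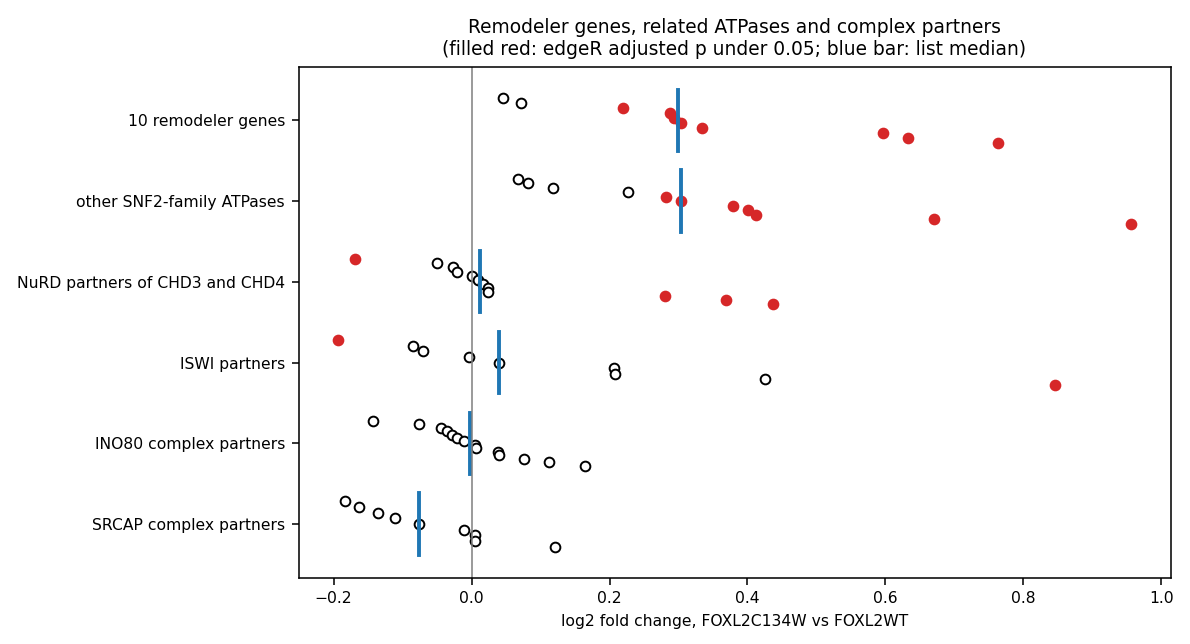
Log2 fold change between FOXL2C134W and FOXL2WT (x axis) of the 10 members, other ATPases and the complex partners (rows); each point is a gene, filled red where the adjusted p was under 0.05, and the blue bar is the median of the list. Medians are 0.30 for the members and the other ATPases and between -0.08 and 0.04 for the partner lists.

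Across the 15 libraries, the 8 called members varied together, with Pearson correlations of log2-CPM from 0.60 to 0.96 over their 28 pairs (median 0.82). SMARCA5 and SMARCA1 had 0.81 with each other and 0.26 to 0.66 with the 8. These libraries share conditions, depth and the share of long genes, and the values are a description. Among all other genes, those most like BAZ2A in log2-CPM were ITPR3 (0.977), DLG5 (0.950), PRRC2C (0.949), SOGA1 (0.946) and AHNAK2 (0.946), and those most like CHD3 were MYRF (0.974), ZMYND8 (0.963), CIT (0.962), SYNPO (0.952) and HNRNPUL2 (0.947), each over 15 libraries. Spearman correlations of the same genes ran from 0.854 to 0.954.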

How the data were processed

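RNA from 15 HGrC1 libraries, 3 per condition, was analysed. Condition and replicate letter came from the sample labels. Estimated counts were made by the authors with Salmon 1.1.0 on hg38 from 75-base single-end stranded mRNA reads, summed them to genes and deposited them as whole numbers without normalization. The deposited TPM values, with transcript lengths and estimated reads, come from the same run in the authors' tables of 227063 transcripts. The annotation release was not given in the sources used here. GENCODE 44 held 98.4% of the transcripts. At totals of 14962245 to 25339094 estimated counts, replicates differed by more than counting error over all genes tested. This was not measured for the members alone.

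All 15 libraries were fitted in edgeR 4.0.16 (R 4.3.3) with filterByExpr, TMM and the quasi-likelihood test, two-sided, with Benjamini-Hochberg adjustment over 13868 genes. Alternatives were DESeq2 1.42.0 with and without transcript length offsets, its size factors, other count filters, the compared conditions alone, a replicate block, lowess offsets (span 0.3) for length and GC content, and leaving out each library; offsets for length and GC content together and the limit of 1000 bases were added after seeing the data. Log2-CPM had a prior count of 2, and intervals are 1.96 standard errors. They can be narrower than the test implies. For BAZ2A in FOXL2C134W against Vectors the interval was 0.0072 to 0.22, with an unadjusted edgeR p of 0.051. Plots and summaries used Python 3.11.15, pandas 2.3.3, numpy 2.4.6 and matplotlib 3.10.9. The fits were tested on simulated data. The members, gene lists and tests were chosen with earlier results of these data known. Named genes were all members, the 3 transfected genes, markers, and the 5 genes most like BAZ2A and CHD3. The called genes with the largest and smallest changes of each list (up to 3 each way) were also named. BAZ1A, BAZ2B, HDAC1, HDAC2 and VPS72 were named after their values were seen.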

Additional observations from a re-analysis of the deposited data

Results flagged for a closer look

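The log2 fold change of CHD3 between libraries with and without FOXO1 differed between the FOXL2 backgrounds. The interaction term, the log2 fold change with FOXO1 in FOXL2C134W minus that in FOXL2WT, was -0.73 (standard error 0.13, edgeR adjusted p = 0.011). Its parts, -0.38 in FOXL2C134W (adjusted p = 0.058) and 0.35 in FOXL2WT (adjusted p = 0.24), were not called by edgeR. The interaction was called in 12 of 12 fits that left out a library, with values from -0.83 to -0.66. FOXO1 averaged 43.2 CPM in FOXL2C134W + FOXO1 and 117 CPM in FOXL2WT + FOXO1. SMAD3 RNA was lower with FOXO1 than without it in both backgrounds. The FOXL2 background and the amounts of FOXO1, FOXL2 and SMAD3 RNA cannot be told apart here. DESeq2 with transcript length offsets gave 0.19 (adjusted p = 0.98), in a fit where the length assigned to CHD3 ranged from 488 to 6198 bases.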

How the results depend on the processing

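Of 840 member changes recomputed under alternatives other than leaving out a library, 735 kept direction and side of the threshold, 14 lost and 69 gained the call, and 22 changed sign; of 480 without a library, 432 kept both and 10 changed sign. These calls rest on 3 replicates per condition, and the parts of depth and of spread between replicates were not separated for the members. The cause of a change was not tested except where stated.

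In FOXL2WT against Vectors, where 1 member was called, DESeq2 called 2, DESeq2 with transcript length offsets 0 and with those over transcripts of at least 1000 bases 2, at least 1 count in any library 6, the compared conditions alone 6, length offsets 2, GC content offsets 3, and both offsets 3; without a library the count was 0 to 1. In FOXL2C134W against Vectors (2 called), at least 1 count in any library gave 8 and GC content offsets 1; without a library it was 0 to 8. Between the alleles (8 called), DESeq2 with transcript length offsets gave 4, those over at least 1000 bases 7, length offsets 7, and without a library 5 to 8. Length offsets with the replicate block or with GC content offsets also gave 8, but with SMARCA5 called lower and INO80 not called (adjusted p = 0.091 and 0.056). In FOXL2C134W + FOXO1 against FOXL2C134W (0 called), DESeq2 gave 1, its transcript length offsets 2, at least 1 count in any library 4 and at least 10 in every library 1; without a library it was 0 to 2. In FOXL2WT + FOXO1 against FOXL2WT (0 called), DESeq2 gave 1, at least 1 count in any library 2, and transcript length offsets over at least 1000 bases 1. In FOXL2C134W + FOXO1 against FOXL2WT (0 called), at least 1 count in any library gave 7, the compared conditions alone 3, and transcript length offsets over at least 1000 bases 2. For the interaction (1 called), DESeq2 gave 3, its transcript length offsets 2 and over at least 1000 bases 3, at least 1 count in any library 6, at least 10 in every library 2, length offsets 2 and the replicate block with length offsets 2; without a library it was 1 to 7.

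Signs changed as follows. With transcript length offsets in DESeq2, where short transcripts set the lengths, CHD3 was -0.45 and CHD8 -0.036 and INO80 -0.19 in FOXL2C134W against Vectors, CHD3 -0.29 between the alleles, CHD3 0.24, CHD4 0.051 and INO80 0.32 with FOXO1 in FOXL2C134W, BAZ2A -0.036 with FOXO1 in FOXL2WT, CHD3 -0.048 and CHD8 -0.051 in FOXL2C134W + FOXO1 against FOXL2WT, and CHD3 0.19 and INO80 0.19 for the interaction. With length offsets, length offsets and replicate block, and length with GC content offsets, INO80 was 0.016, 0.015 and 0.0075 in FOXL2WT against Vectors, SMARCA5 -0.13, -0.13 and -0.13 between the alleles (adjusted p = 0.075, 0.047 and 0.016) and -0.021, -0.021 and -0.0024 with FOXO1 in FOXL2WT. GC content offsets gave SMARCA1 -0.0032 for the interaction. Without a library, INO80 ranged from -0.035 to 0.021 in FOXL2WT against Vectors, SMARCA1 from -0.020 to 0.13 with FOXO1 in FOXL2C134W, SMARCA5 from -0.045 to 0.079 with FOXO1 in FOXL2WT, and SMARCA5 from -0.0071 to 0.13 and SMARCA1 from -0.067 to 0.081 for the interaction.

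Gene levels of 30.0 (BAZ2A), 62.3 (CHD3), 67.8 (CHD4), 15.4 (INO80) and 9.23 TPM (SRCAP) over all transcripts became 14.9, 10.4, 53.8, 10.7 and 5.25 TPM over transcripts of at least 1000 bases, and BAZ2A, CHD3 and INO80 had 21.9, 10.3 and 7.44 TPM in protein-coding transcripts. Deviations of same-letter libraries from their condition means correlated by -0.164 to 0.166, and those of other pairs by -0.122 to 0.123. Of 15 libraries, 5 correlated best with their own letter. Whether the letters mark a shared batch cannot be told from these values. With the letter as a replicate block, members called were 1 in FOXL2WT against Vectors, 2 in FOXL2C134W against Vectors, 8 between the alleles, 0 in the FOXO1 comparisons and 1 for the interaction.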

Other observations

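Several genes of the partner lists were called in comparisons other than that of the alleles. In FOXL2C134W against Vectors, EP400 (log2 fold change 0.67, edgeR adjusted p = 2.3e-04), SMARCA4 (0.50, adjusted p = 1.7e-05), GATAD2A (0.32, adjusted p = 2.7e-04), MTA1 (0.32, adjusted p = 0.0083), GATAD2B (0.28, adjusted p = 0.046), BPTF (0.52, adjusted p = 0.019) and NFRKB, a subunit of the INO80 complex (0.25, adjusted p = 0.011), were higher. USF1 (-0.29, adjusted p = 0.015) and YEATS4, a reader of acetylated histones in the SRCAP complex (-0.20, adjusted p = 0.042), were lower. POLE3 was higher in FOXL2WT than in Vectors (0.18, adjusted p = 0.016). EP400 (0.51, adjusted p = 0.026) and SMARCA4 (0.34, adjusted p = 0.0071) were higher in FOXL2C134W + FOXO1 than in FOXL2WT. With FOXO1 added to FOXL2C134W, EP400 (-0.45, adjusted p = 0.045), SMARCA4 (-0.33, adjusted p = 0.015) and GATAD2A (-0.27, adjusted p = 0.016) were lower, and their interaction terms were -0.78, -0.65 and -0.45 (adjusted p = 0.014, 0.0012 and 0.0065). These genes were named here because they were called, after their values were seen.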
